A study of Mus musculus with 15 samples.

Results

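The response of 37 interferon-stimulated genes was followed in the mouse spleen after 70% liver resection. They were chosen by name, as genes that interferon is known to induce, with earlier results of these data known. Of the 37 genes, 34 were measured, each by 1 of the 22206 features tested. Ddx60, Ifi44 and Ifi47 were not matched to a feature with a single gene symbol and were not analysed here. RNA came from spleens of 3 mice on each of days 1, 3 and 7 after the resection and of 6 intact mice, and each spleen was hybridised to its own Clariom S array (15 arrays). The mice were C57bl/10 males, and their age is not given in the sources used here. The resected mice were operated on under isoflurane, whereas the intact mice were not operated on, and sham-operated mice were not on these arrays, so that resection and surgery with anaesthesia cannot be told apart. The labels describe the spleens of a group as biological replicates. Spleens of days 1 and 7 were compared with intact spleens 1 to 3, and those of day 3 with intact spleens 4 to 6, because the intact spleens differ by these sets of replicate numbers. The labels do not say which intact spleens were prepared with which day.

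Interferons act through cell surface receptors and JAK kinases. Type I and type III interferons act through a complex, of which Stat2 and Irf9 are part, that binds the interferon-stimulated response element (ISRE) in promoters, whereas interferon gamma acts mainly at the gamma-activated site (GAS). The genes induced encode sensors of viral nucleic acids, enzymes and GTPases that block viral replication, and regulators of the pathway itself. In the spleen, plasmacytoid dendritic cells and macrophages are known sources of type I interferon, and most spleen cell types can respond to it.

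Promoter sequence from RefSeq (build GRCm38.p6), from 250 bases before to 50 after the transcript start, was at hand for 24 of the 34 measured genes. The ISRE core was searched as GAAANNGAA on both strands, and occurred in the promoter of 15 of the 24 genes (62.5%), against 9.8% of all 27025 genes with a promoter. The GAS, TTCNNNGAA, which reads the same on both strands, occurred in 7 of the 24 (29.2%), against 9.6% of all genes, and overlapped an ISRE core only in Bst2. Among the 12 genes with the largest differences, plotted below on every array, Ifit3, Isg15, Gbp2, Rsad2 and Trim30a held an ISRE core. Their stretches around the core are shown on the strand of the gene because they carry the element that these genes share, with every ISRE core within the stretch in capitals. A match is a description of these letters, not of binding.
Ifit3, chr19:34583402-34583460, plus strand: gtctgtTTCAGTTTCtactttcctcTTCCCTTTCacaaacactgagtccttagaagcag
Isg15, chr4:156200851-156200909, minus strand: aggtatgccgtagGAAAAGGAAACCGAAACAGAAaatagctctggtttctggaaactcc
Gbp2, chr3:142620580-142620638, plus strand: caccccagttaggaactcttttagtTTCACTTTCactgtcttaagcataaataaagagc
Rsad2, chr12:26456538-26456596, minus strand: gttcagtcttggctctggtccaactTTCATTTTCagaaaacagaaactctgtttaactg
Trim30a, chr7:104465195-104465253, minus strand: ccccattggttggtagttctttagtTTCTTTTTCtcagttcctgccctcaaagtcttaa

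The core shown for Isg15 is a run of overlapping matches, while Gbp2, Rsad2 and this Trim30a promoter hold a single match. The core of Gbp2 started 58 bases before the transcript start, and that of Trim30a 35 bases before it, at 1 of its annotated starts. Isg20, Irf7, Xaf1 and Oasl2, also among the 12, held no ISRE core in this window.

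The deposited values are log2 levels normalised across arrays by the authors. They ran from 1.79 to 19.93, array medians lay between 4.74 and 4.89, and any 2 arrays correlated across features with a Pearson's r of 0.944 to 0.987. Transcripts of pancreatic acinar cells stood apart on intact spleens 1 and 2, where 9 such genes had mean log2 levels of 15.96 and 13.98, against 5.50 on intact spleen 3, 3.97 to 7.45 on intact spleens 4 to 6, and 4.18 to 6.63 on day 1, 3.70 to 4.13 on day 3 and 4.09 to 9.33 on day 7. The spleen's own cell types were measured on every array, with mean log2 levels of 8.48 to 12.22 for 7 B cell genes and 9.46 to 12.38 for 8 red pulp macrophage genes. Oasl1 lay below the array median on all 15 arrays, Oas2 on 12, Oas3 on 11 and Ifit1 and Oas1a on 10 each, so that the differences of these genes rest on low signal. Ifit3 and Oas1a have near-identical paralogs in the mouse, and whether their probes also read these was not examined. Whether the log2 scale was transformed further before deposit is not given in the sources used here, and differences would then be larger or smaller than given.

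**Figure D1:**
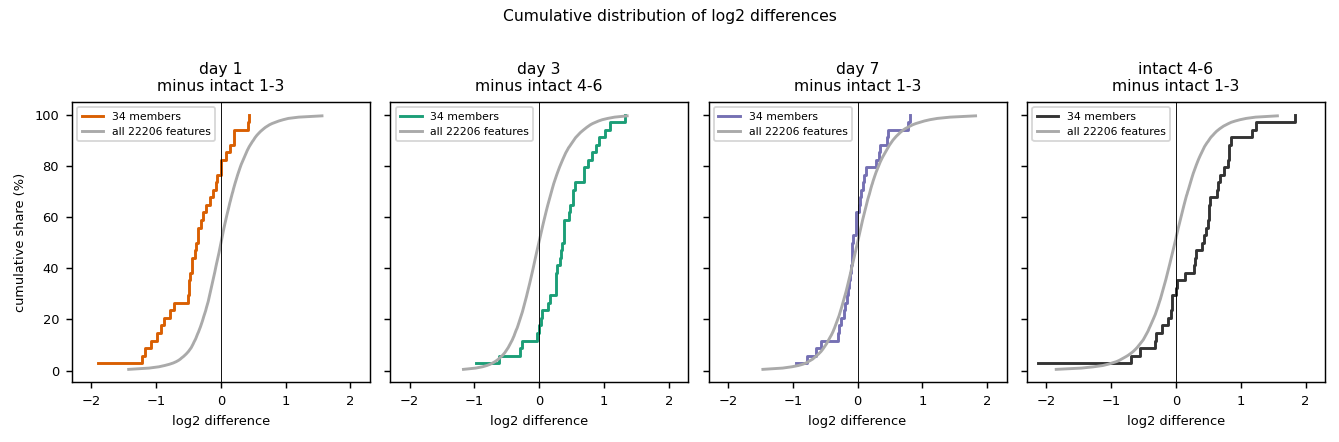
Cumulative share (%) of log2 differences in 4 comparisons, for the 34 measured interferon-stimulated genes (coloured steps) and for quantiles of all 22206 features (grey). The curve of the 34 genes lies left of the grey one on day 1 (median -0.37), right of it on day 3 (0.36) and in intact spleens 4 to 6 against 1 to 3 (0.42), and close to it on day 7 (-0.07).

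On day 1 most of the interferon-stimulated genes had lower levels than in intact spleens 1 to 3. The mean was lower for 27 of the 34 genes and higher for 7, with a median log2 difference of -0.37 and quartiles of -0.665 and -0.067. Over all features the median was 0.00, and 50.3% had a higher mean. None of the 34 passed the limma test at an adjusted p under 0.05, and neither did any feature of the array (0%). The smallest adjusted p among the 34 was 0.585, for Ifit3. At an unadjusted p under 0.05, 4 of the 34 (11.8%) were lower, namely Ifih1, Ifit3, Irf9 and Usp18, against 2.63% of all features, and 0 were higher, against 4.48%. For 10 genes (29.4%) every day 1 array lay below every array of intact spleens 1 to 3, against 7.14% of all features. For 1 gene, Dhx58, every day 1 array lay above, against 7.89% of all features. The margin was narrow, with 4.837 on replicate 2 of day 1 against 4.825 on intact spleen 2. Dhx58 lay below the array median on intact spleens 1 to 3, so that this separation rests on low signal. Because whole spleens were measured, fewer cells of a type and less RNA per cell cannot be told apart.

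All 3 transcription factors were lower in mean on day 1, with log2 differences of -0.39 for Stat2, -0.87 for Irf9 and -1.16 for Irf7. Irf7, which amplifies the production of type I interferon, had log2 levels of 5.51, 4.40 and 6.47 on day 1, against 6.75, 6.72 and 6.39 in intact spleens 1 to 3. Replicate 3 of day 1 lay within the range of the intact spleens and the other 2 below it, with a difference of -1.16 ± 0.60 (SE, adjusted p = 0.739 by limma). Irf9, the DNA-binding subunit of the complex at the ISRE, had 6.55, 5.78 and 6.66 on day 1 and 7.08, 7.10 and 7.41 in intact spleens 1 to 3, with no overlap. The sensors differed in direction on day 1, with -0.93 for Ifih1 (MDA5, a sensor of long double-stranded RNA), -0.22 for Zbp1 (a sensor of Z-form nucleic acids) and 0.42 for Dhx58 (LGP2, which modulates Ifih1).

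Isg15, a ubiquitin-like protein that is joined to other proteins, had 3.90, 3.66 and 5.47 on day 1, against 5.65, 5.94 and 4.66 in intact spleens 1 to 3. The groups overlapped, and the difference was -1.07 ± 0.86 (SE, adjusted p = 0.828 by limma). Usp18, the protease that removes Isg15 and also restrains the type I receptor, had 6.89, 5.85 and 7.28 on day 1, against 7.80, 8.47 and 7.39 in intact spleens 1 to 3. All day 1 arrays lay below all intact arrays, by a narrow margin for replicate 3, and the difference was -1.22 ± 0.47 (SE, adjusted p = 0.632 by limma). Isg20, an exonuclease that degrades RNA, had 13.14, 10.80 and 11.82 on day 1, against 13.65, 14.39 and 13.41 in intact spleens 1 to 3. Here too the arrays did not overlap, with a difference of -1.90 ± 0.97 (SE, adjusted p = 0.732 by limma), the largest of the 34 genes on day 1. Against intact spleens 4 to 6 the same day 1 arrays gave 0.23, so that the direction of Isg20 on day 1 turned with the set of intact spleens. The mean of 5 erythroid genes was also lower on day 1, at 11.89, 12.16 and 12.18, against 13.12, 13.64 and 12.90 in intact spleens 1 to 3. Within day 1 this mean was lowest on replicate 1, where Isg20 was highest, and its part in the values of Isg20 was not tested.

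The remaining genes differed by less than 1 in mean on day 1. Of the Ifit genes, whose products bind foreign RNA, Ifit3 differed by -0.98 ± 0.32 (SE), whereas Ifit2 and Ifit1 differed by -0.07 and 0.01. The 5 genes of the oligoadenylate synthetase family, most of which make the messenger that activates RNase L, ran from -0.72 for Oas3 to 0.00 for Oas2. Mx1 and Mx2, genes of dynamin-like GTPases, differed by -0.36 and -0.35. Whether these genes give functional proteins in this mouse strain was not examined. The kinase gene Eif2ak2 (PKR), which halts translation on double-stranded RNA, differed by -0.48. Of the 4 GTPases of the interferon gamma response, Igtp, Gbp2 and Irgm1 had differences of -0.78, -0.51 and -0.45 and did not overlap with the intact spleens, whereas Gbp3 differed by 0.44. The last 10 genes ran from -0.495 for Rsad2 to 0.21 for Trim30a on day 1.

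**Figure D2:**
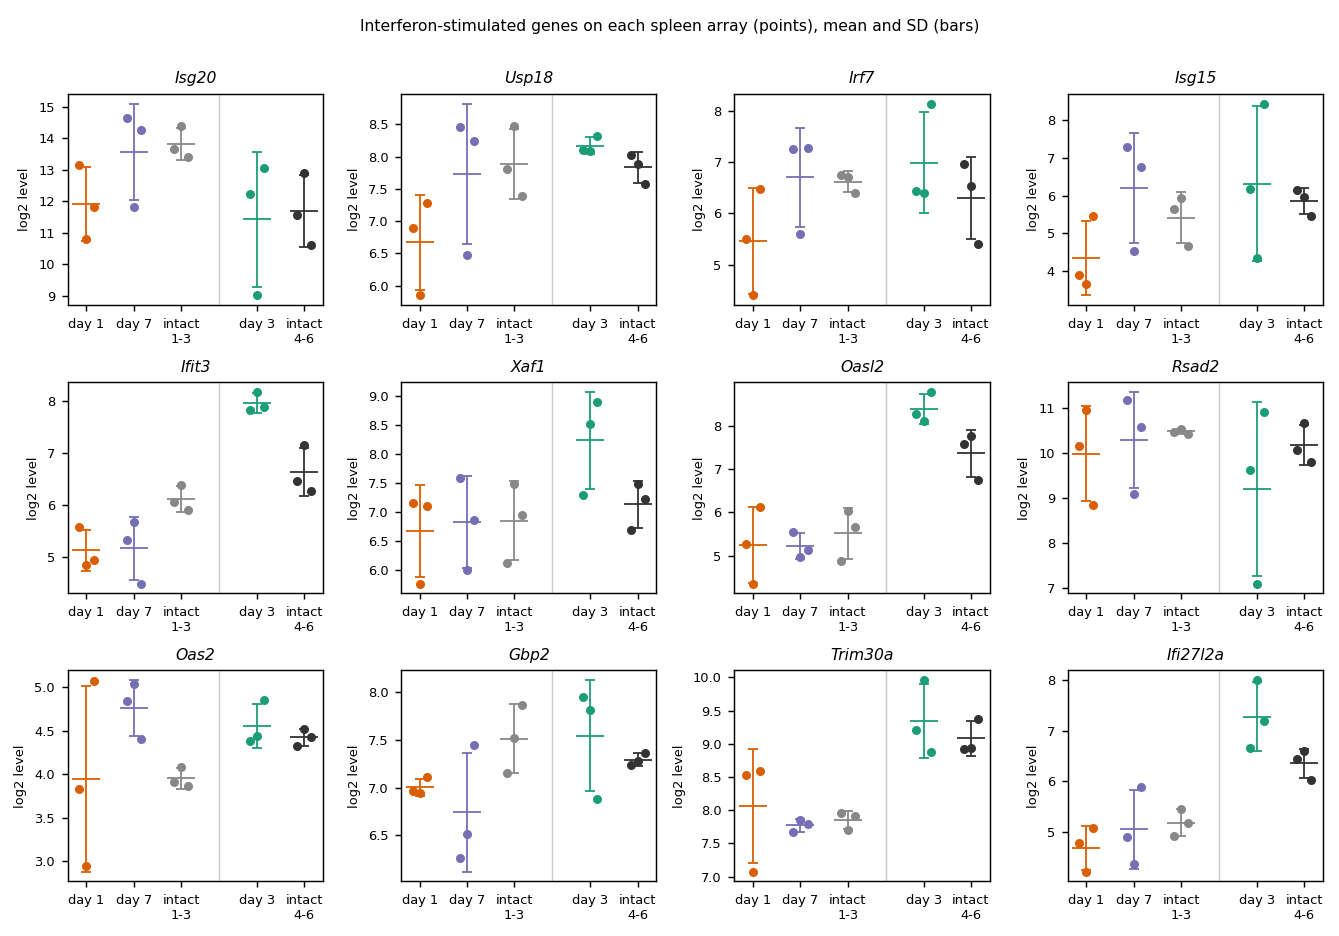
Log2 levels (vertical axes) of 12 interferon-stimulated genes on every array, with points for single spleens and bars for the mean and SD (n = 3), and with days 1 and 7 beside intact spleens 1 to 3 and day 3 beside intact spleens 4 to 6. The 3 day 3 arrays of Ifit3 (7.83 to 8.17) and Oasl2 (8.11 to 8.77) lie above all other arrays of these genes, while Isg15, Rsad2 and Isg20 spread widely within groups.

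On day 3 the interferon-stimulated genes mostly had higher levels than in intact spleens 4 to 6. The mean was higher for 28 of the 34 genes, against 49.5% of all features, with a median log2 difference of 0.36, quartiles of 0.14 and 0.65, and a median of 0.00 over all features. Differences of at least 1, that is a doubling, were reached by Ifit3, Xaf1 and Oasl2, and 1.82% of all features reached it. No gene of the 34 passed the limma test at an adjusted p under 0.05, against 0.00901% of all features (2 of 22206). The smallest adjusted p among the 34 was 0.15, for Ifit2, followed by 0.166 for Ifit3. At an unadjusted p under 0.05, 7 of the 34 (20.6%) were higher, namely Dhx58, Ifi27l2a, Ifit2, Ifit3, Oasl2, Rtp4 and Xaf1, against 5.76% of all features, and 0 were lower, against 3.28%. For 7 genes every day 3 array lay above every array of intact spleens 4 to 6, against 6.78% of all features, and for 0 every array lay below, against 5.38%.

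Ifit3 had the largest difference of the 34 genes on day 3. Its log2 levels were 7.83, 8.17 and 7.87 on day 3, against 6.46, 7.15 and 6.28 in intact spleens 4 to 6, and the promoter stretch shown above holds 2 ISRE cores. The arrays did not overlap, and the difference was 1.33 ± 0.32 (SE, adjusted p = 0.166 by limma), or 2.51-fold. Ifit2, a related protein with the same kind of repeats, had 6.59, 6.48 and 6.70 on day 3, against 5.82, 5.85 and 5.49 in intact spleens 4 to 6. It likewise did not overlap, with a difference of 0.87 ± 0.20 (SE, adjusted p = 0.15 by limma). The promoter window of Ifit2 held no ISRE core, as was the case for Oasl2 and Xaf1. Ifit1 had 4.67, 5.17 and 5.29 on day 3, against 3.92, 5.49 and 4.59 in intact spleens 4 to 6, and overlapped.

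Among the oligoadenylate synthetases only Oasl2 differed by more than 0.3 in either direction on day 3. Oasl2, a member of the family with ubiquitin-like domains, had 8.25, 8.11 and 8.77 on day 3, against 7.59, 7.76 and 6.73 in intact spleens 4 to 6. The arrays did not overlap, and the difference was 1.02 ± 0.42 (SE, adjusted p = 0.478 by limma), whereas Oas1a, Oas2, Oas3 and Oasl1 differed by 0.17, 0.13, -0.30 and 0.27. Mx1 and Mx2 differed by 0.35 and 0.39. Of the sensors, Dhx58 had 6.29, 6.01 and 5.70 on day 3, against 5.08, 5.50 and 5.16 in intact spleens 4 to 6. All its day 3 arrays were higher (0.76 ± 0.24, SE, adjusted p = 0.341 by limma), while Ifih1 and Zbp1 differed by 0.52 and 0.39.

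The 5 genes of other or less settled roles were all higher in mean on day 3, by 0.27 to 1.10. Xaf1, which encodes a protein linked to cell death, had 7.29, 8.52 and 8.89 on day 3, against 6.69, 7.48 and 7.22 in intact spleens 4 to 6. Replicate 1 of day 3 lay within the range of the intact spleens and the other 2 above it, with a difference of 1.10 ± 0.51 (SE, adjusted p = 0.547 by limma). Ifi27l2a, a small membrane protein gene of the Ifi27 family, had 6.65, 7.995 and 7.18 on day 3, against 6.44, 6.59 and 6.03 in intact spleens 4 to 6. It did not overlap, with replicate 1 of day 3 close to intact spleen 5, and the difference was 0.92 ± 0.39 (SE, adjusted p = 0.499 by limma). Rtp4, a receptor transporter that also acts against viruses, differed by 0.81, and Parp9, a macrodomain protein of the PARP family, by 0.69 without overlap, whereas the ADP-ribosyltransferase Parp14 differed by 0.05.

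Among the 3 transcription factors, Irf7, Irf9 and Stat2 differed by 0.69, 0.31 and 0.00 on day 3. Usp18 had 8.10, 8.09 and 8.32 on day 3, against 8.03, 7.89 and 7.57 in intact spleens 4 to 6, above them on every array but by only 0.34 ± 0.47 in mean (SE, adjusted p = 0.894 by limma). Eif2ak2 and Ifi35, a leucine zipper protein gene, differed by 0.55 and 0.52, and Bst2 (tetherin, which holds budding virus at the cell surface) by -0.035.

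Some genes of the group had lower means on day 3 or arrays that spread widely. Rsad2 (viperin, a radical SAM enzyme that makes a chain-terminating nucleotide) had 9.62, 7.10 and 10.91 on day 3, against 10.08, 10.67 and 9.79 in intact spleens 4 to 6. Replicate 2 of day 3 was far below and replicate 3 above all intact arrays of the set, and the difference of -0.97 ± 0.77 (SE, adjusted p = 0.781 by limma) turned to 0.09 without replicate 2. Cmpk2, a nucleotide kinase gene next to Rsad2 in the genome, had 8.78, 7.94 and 11.00 on day 3, against 8.74, 10.19 and 8.71 in intact spleens 4 to 6. Isg20 had 12.22, 9.003 and 13.06 on day 3 and 11.57, 12.89 and 10.60 in intact spleens 4 to 6, and Isg15 had 6.17, 4.35 and 8.43 on day 3 and 6.14, 5.96 and 5.46 in intact spleens 4 to 6. For Rsad2, Isg20 and Isg15 replicate 2 of day 3 was the lowest array of the group and replicate 3 the highest. The erythroid mean had the same order, at 11.19, 8.57 and 13.35 on the 3 day 3 arrays, and its part in these values was not tested. Igtp, a GTPase of the interferon gamma response, also had a lower mean on day 3 (-0.63 ± 0.48, SE), with Gbp2, Irgm1 and Gbp3 at 0.25, 0.26 and 0.47.

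On day 7 the interferon-stimulated genes as a group lay near intact spleens 1 to 3. The mean was higher for 13 of the 34 genes, against 49.7% of all features, with a median log2 difference of -0.07 and quartiles of -0.185 and 0.094. None of the 34 passed the limma test at an adjusted p under 0.05 (0% of all features), and the smallest adjusted p was 0.331, for Ifit3. At an unadjusted p under 0.05, 3 of the 34 (8.82%) were lower, namely Gbp2, Ifit3 and Mx1, against 4.45% of all features, and 0 were higher, against 5.91%. Only Oas2 had every day 7 array above the intact ones, against 7.93% of all features, and only Ifit3 and Mx1 had every array below, against 8.31%. The sign of the median turned without replicate 2 of day 7 (0.22) and without intact spleen 2 (0.04).

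Ifit3 was lower in mean on day 7, as on day 1. Its levels were 5.33, 5.69 and 4.50 on day 7, against 6.05, 6.39 and 5.90 in intact spleens 1 to 3, without overlap, and the difference was -0.95 ± 0.32 (SE, adjusted p = 0.331 by limma). Mx1 had 5.33, 5.37 and 5.22 on day 7, against 6.18, 5.83 and 5.85 in intact spleens 1 to 3. All its day 7 arrays were lower, by a difference of -0.64 ± 0.24 (SE, adjusted p = 0.377 by limma). Gbp2, a guanylate-binding protein that acts against bacteria and parasites inside cells, had 6.27, 6.52 and 7.45 on day 7, against 7.15, 7.52 and 7.87 in intact spleens 1 to 3. Replicate 3 of day 7 reached into the intact range, and the difference was -0.77 ± 0.32 (SE, adjusted p = 0.419 by limma).

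Other genes were higher in mean on day 7. Oas2 had 4.85, 5.03 and 4.41 on day 7, against 3.91, 4.09 and 3.86 in intact spleens 1 to 3, a difference of 0.81 ± 0.38 (SE, adjusted p = 0.487 by limma) without overlap, at levels near or below the array median. Isg15 had 7.28, 4.55 and 6.76 on day 7, against 5.65, 5.94 and 4.66 in intact spleens 1 to 3. Replicates 1 and 3 of day 7 were above all the intact arrays and replicate 2 below them, and the difference was 0.78 ± 0.86 (SE, adjusted p = 0.825 by limma). Igtp had 9.77, 7.66 and 9.70 on day 7 and 8.64, 8.68 and 8.45 in intact spleens 1 to 3, with the same arrays high and low. The erythroid mean was 13.61, 11.48 and 13.56 on the day 7 arrays, lowest on replicate 2, and its part in these values was not tested. The other 28 genes ran from -0.57 for Mx2 to 0.47 for Eif2ak2 on day 7.

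**Figure D3:**
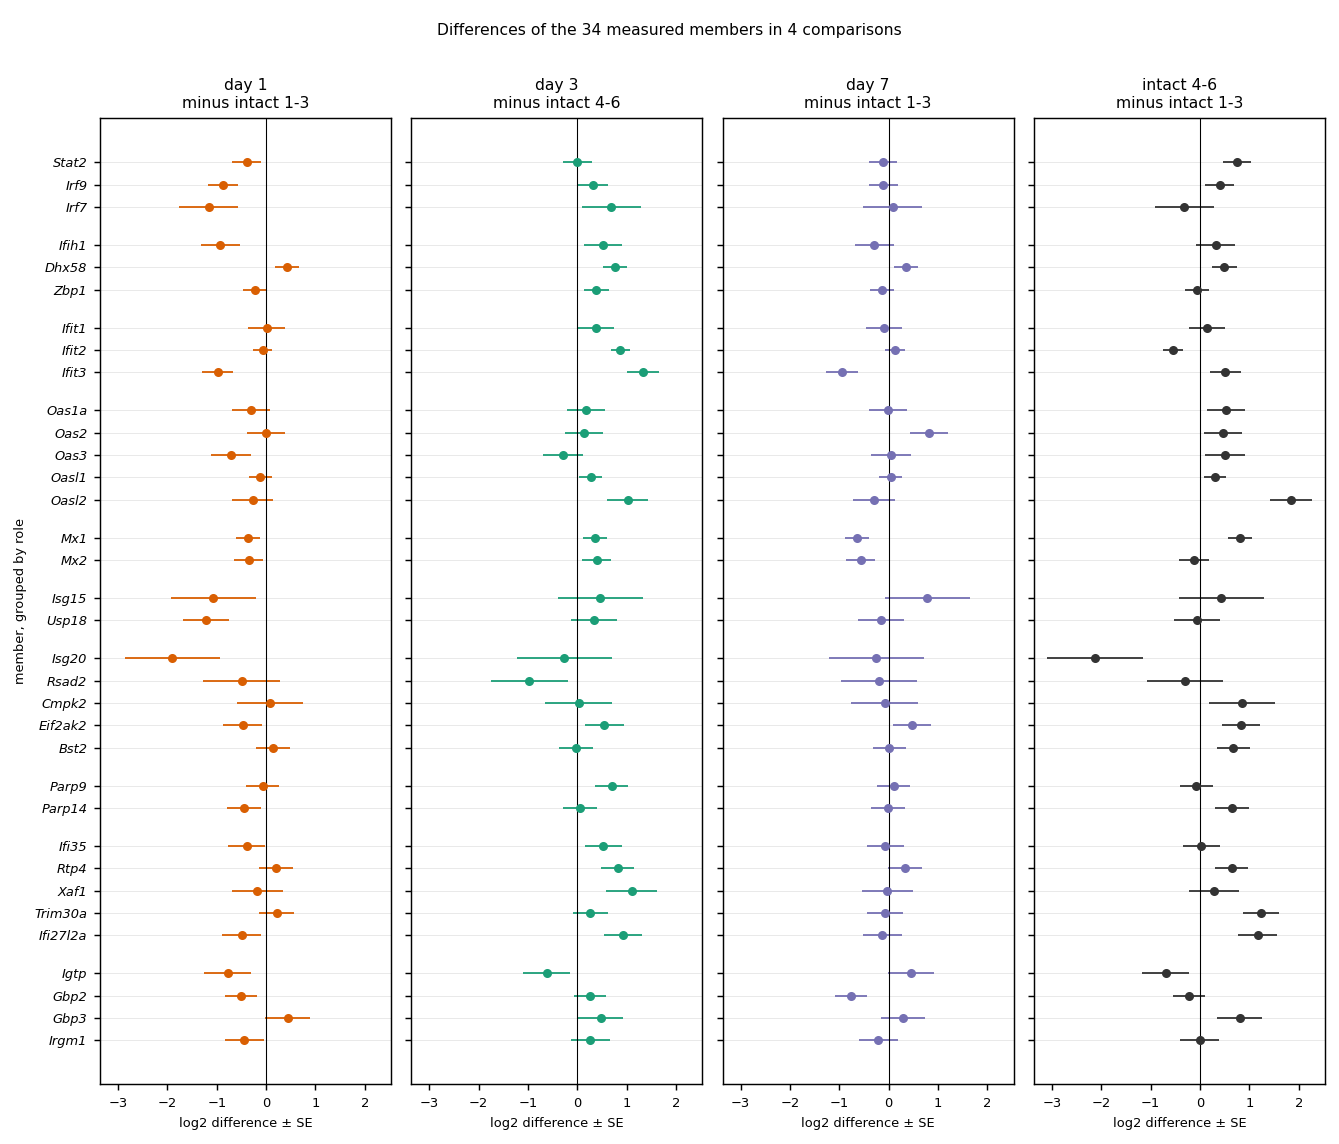
Log2 differences with their SE (horizontal axes) of all 34 measured genes, in rows grouped by role, for days 1, 3 and 7 against their intact spleens and for intact spleens 4 to 6 against 1 to 3. Most points lie below 0 on day 1 (27 of 34) and above 0 on day 3 (28 of 34) and between the sets of intact spleens (23 of 34).

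The days were then compared with each other by testing the difference between their effects. The day 3 effect, against intact spleens 4 to 6, exceeded the day 1 effect, against intact spleens 1 to 3, for 31 of the 34 genes (91.2%), against 49.9% of all features, with a median excess of 0.705 on the log2 scale. Of the 34 genes, 8 exceeded it at an unadjusted p under 0.05, namely Ifi27l2a, Ifih1, Ifit2, Ifit3, Irf7, Irf9, Oasl2 and Usp18, against 2.77% of all features, and 0 fell short, against 2.31%. None passed at an adjusted p under 0.05 by limma (0% of all features), with 0.94 as the smallest adjusted p. The largest excess was that of Ifit3, at 2.31 ± 0.45 (SE), followed by Irf7 at 1.85 ± 0.85.

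Against the day 7 effect, the day 3 effect was larger for 27 of the 34 genes, against 50.6% of all features, with a median excess of 0.445. The effect of 6 genes was larger on day 3 at an unadjusted p under 0.05, among them Mx1, Mx2 and Gbp2, against 3.07% of all features, and 0 were smaller, against 2.77%. The adjusted p under 0.05 was again reached by 0 genes (0% of all features), and the smallest was 0.643, for Ifit3.

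Day 7 and day 1 were compared directly, since both refer to intact spleens 1 to 3. Day 7 was higher in mean for 24 of the 34 genes, against 51.2% of all features, with a median difference of 0.22. Eif2ak2, Igtp, Irf9, Isg15 and Usp18 were higher at an unadjusted p under 0.05, against 5.58% of all features, and 0 genes were lower, against 7.12%. None of the 34 passed at an adjusted p under 0.05 by limma, against 0.0585% of all features, with 0.287 for Igtp as the smallest adjusted p. In the order of the effects of the 3 days, day 3 was the highest for 26 of the 34 genes (35.5% of all features) and day 1 the lowest for 23 (32.3%).

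The 34 genes also varied among the arrays of a day. The median difference of the 34 genes from the mean of the matched intact spleens was -0.32, -0.76 and -0.14 on the 3 day 1 arrays, 0.16, 0.37 and 0.53 on day 3, and 0.17, -0.62 and 0.24 on day 7. All day 1 medians were thus below 0 and all day 3 medians above it, while day 7 held arrays on each side. Replicate 2 of day 1 was the lowest of its group for 26 of the 34 genes, against 34.3% of all features, and replicate 2 of day 7 for 25, against 32.4%. Replicate 3 was the highest array of day 1 for 23 genes, against 32.2% of all features, and of day 3 for 18, against 34.6%. Intact spleens varied as well, with medians of -0.06, 0.17 and -0.04 on spleens 1 to 3 and -0.06, 0.23 and -0.24 on spleens 4 to 6. Neutrophil genes had their highest mean of each group on replicate 2 of day 1 (13.27) and of day 7 (14.54), and their lowest on replicate 3 of day 3 (9.34). In intact spleens 4 to 6 both the neutrophil mean (11.61) and the median of the 34 genes (0.23) were highest on spleen 5. In intact spleens 1 to 3 the neutrophil mean was lowest on spleen 2 (10.80), where that median was highest (0.17). Within days 1 and 7, replicate 2 also had the lowest B cell (8.48 and 8.78) and T cell means (7.99 and 7.09). Means of natural killer and conventional dendritic cell genes were lowest there too. On day 3 the B cell and T cell means were lowest on replicate 3 (10.10 and 8.34), where the median of the 34 genes was highest. Whether any of these cell types has a part in the levels of the interferon-stimulated genes was not tested.

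**Figure D4:**
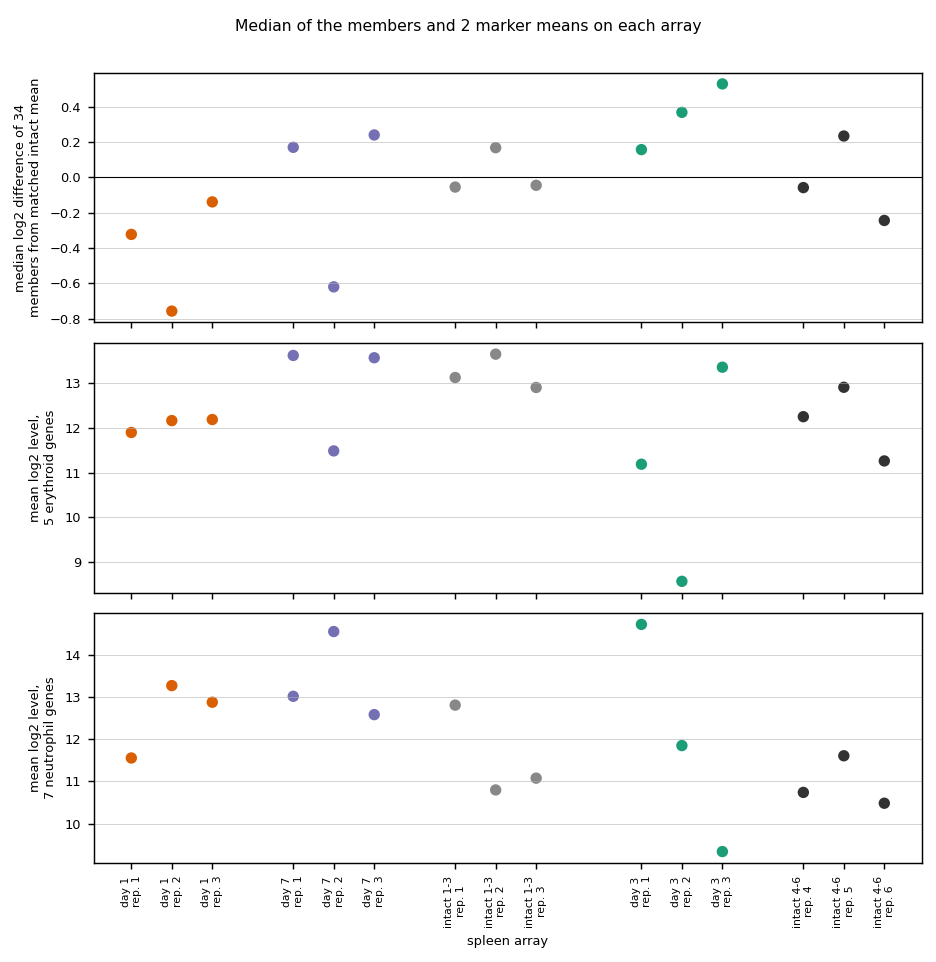
Median log2 difference of the 34 genes from the mean of their matched intact spleens (top), and mean log2 levels of 5 erythroid genes (middle) and 7 neutrophil genes (bottom), for each array, with days left of the intact spleens they were compared with. Replicate 2 is the lowest array of day 1 (-0.76) and of day 7 (-0.62) in the top panel and the highest of these days in the neutrophil panel. Intact spleen 5 is the highest of spleens 4 to 6 in both of these panels.

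The sets of intact spleens themselves differed in interferon-stimulated genes. Spleens 4 to 6 had the higher mean for 23 of the 34 genes, against 48.2% of all features, with a median log2 difference of 0.42 and a median of -0.02 over all features. None of the 34 passed the limma test at an adjusted p under 0.05, against 0.59% of all features, and the smallest adjusted p was 0.0704, for Oasl2. At an unadjusted p under 0.05, 5 genes were higher, namely Ifi27l2a, Mx1, Oasl2, Stat2 and Trim30a, against 5.64% of all features, and 2 were lower, Ifit2 and Isg20, against 5.94%. For 10 genes the arrays of spleens 4 to 6 all lay above those of spleens 1 to 3, against 8.72% of all features, and for 3 (Ifit2, Igtp and Isg20) they all lay below, against 9.31%.

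Oasl2 had 7.59, 7.76 and 6.73 in intact spleens 4 to 6, against 4.87, 6.02 and 5.67 in spleens 1 to 3. The difference of 1.84 ± 0.42 (SE, adjusted p = 0.0704 by limma) was larger than that of day 3. Trim30a, which encodes a protein that restrains inflammatory signalling, had 8.92, 8.94 and 9.38 in intact spleens 4 to 6, against 7.95, 7.70 and 7.91 in spleens 1 to 3, a difference of 1.23 ± 0.36 (SE, adjusted p = 0.172 by limma). Its levels were 9.20, 9.96 and 8.88 on day 3, only 0.27 above spleens 4 to 6 in mean, and 8.53, 7.07 and 8.59 on day 1. Ifi27l2a had 6.44, 6.59 and 6.03 in spleens 4 to 6, against 4.92, 5.45 and 5.17 in spleens 1 to 3, a difference of 1.17 ± 0.39 (SE, adjusted p = 0.242 by limma). Isg20 differed the other way, with 11.57, 12.89 and 10.60 in spleens 4 to 6, against 13.65, 14.39 and 13.41 in spleens 1 to 3, a difference of -2.13 ± 0.97 (SE, adjusted p = 0.413 by limma). None of these genes overlapped between the sets.

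How much of each day's difference lay between the sets was computed for the mean over the 34 genes. All 6 intact spleens average both sets, so the part from the sets is 50% of the difference between them. That whole difference had a mean of 0.298 over the 34 genes. Against all 6 intact spleens the mean log2 difference was 0.505 on day 3, of which 0.356 lay between day 3 and spleens 4 to 6 and 0.149 came from the sets. On day 1 the mean was -0.552, made up of -0.403 against spleens 1 to 3 and -0.149 from the sets, and on day 7 it was -0.188, made up of -0.039 and -0.149. For single genes this 50% part exceeded the difference from the matched set for 11 of the 34 on day 1, 9 on day 3 and 16 on day 7. The whole difference between the sets, which is larger, was not counted in this way. Of the variance among the 6 intact arrays, a median of 38.8% lay between the sets over the 34 genes, against 19.5% over all features, and the share was above 50% for 14 of the 34 genes, against 20.3% of all features. It ran from 92.9% for Trim30a, 87.5% for Oas2, 86.8% for Ifi27l2a and 79.6% for Oasl2 to 0% for Irgm1. Against all 6 intact spleens 0 of the 34 genes passed at an adjusted p under 0.05 on any day by limma, against 0, 6 and 207 of the 22206 features on days 1, 3 and 7.

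With the other set of intact spleens as control, some genes passed the limma test. By limma, on day 3 against spleens 1 to 3 these were Oasl2 (2.86 ± 0.42, SE, adjusted p = 0.00506), Ifit3 (1.84 ± 0.32, adjusted p = 0.0152), Ifi27l2a (adjusted p = 0.0224), Dhx58 (adjusted p = 0.0272) and Mx1 (adjusted p = 0.0377), 5 of the 34 against 0.932% of all features. On day 1 against spleens 4 to 6 they were Ifit3, Oasl2 and Mx1, 3 of the 34 against 1.48% of all features, all lower. On day 7 against spleens 4 to 6 they were Ifit3, Oasl2, Mx1 and Trim30a, 4 of the 34 against 5.85% of all features, again all lower. Between the sets of intact spleens, Oasl2 differed by 1.84, Trim30a by 1.23, Mx1 by 0.82 and Ifit3 by 0.52. Dhx58 lay below the array median on intact spleens 1 to 3, so that its call on day 3 against them rests on low signal.

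**Figure D5:**
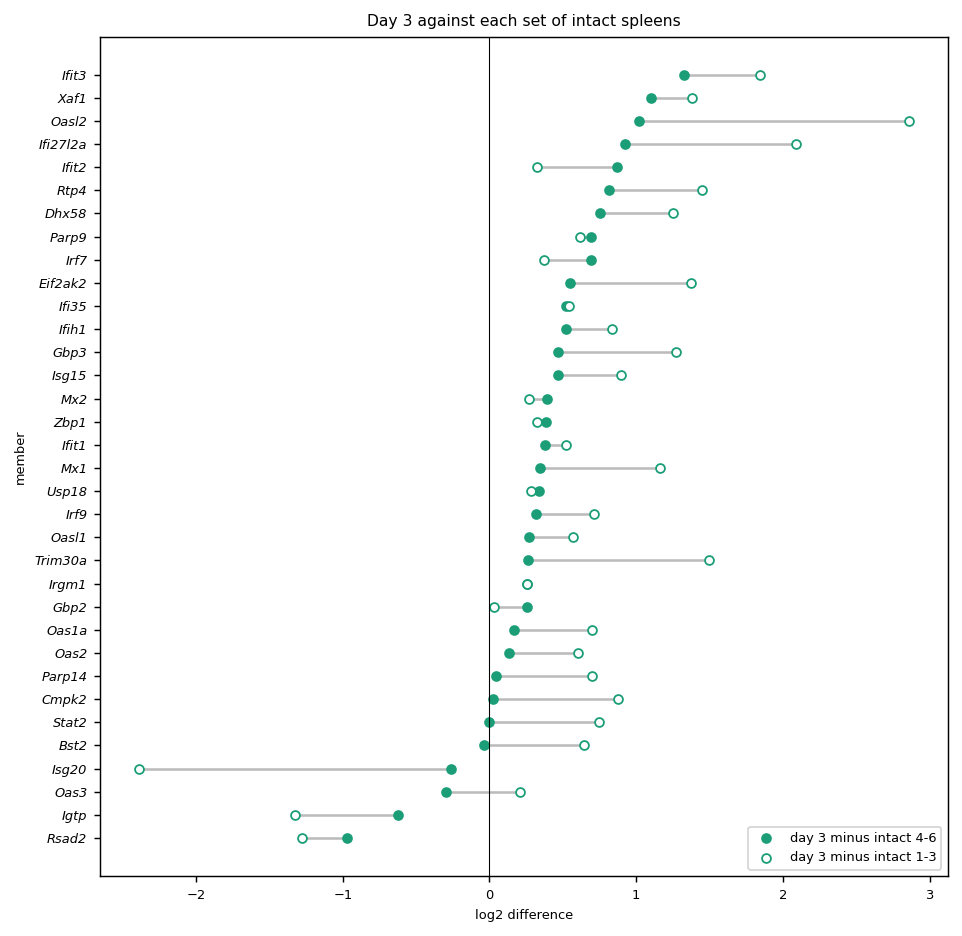
Log2 differences (horizontal axis) of day 3 from intact spleens 4 to 6 (filled) and from intact spleens 1 to 3 (open) for the 34 genes, in order of the filled points. Oasl2 lies at 1.02 against spleens 4 to 6 and at 2.86 against spleens 1 to 3, and Trim30a at 0.27 and 1.49, whereas Ifit2 and Irf7 lie nearer to 0 against spleens 1 to 3.

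Cell type markers also moved with these comparisons. Intact spleens 4 to 6, against spleens 1 to 3, had the higher mean for 7 of 7 B cell genes and 7 of 8 T cell genes, with median log2 differences of 1.02 and 0.47, and 6 of 6 genes of conventional dendritic cells were higher (0.72). In the same comparison all 5 erythroid genes (median -1.215) and 6 of 8 red pulp macrophage genes (-0.81) had lower means. On day 1, 6 of 8 red pulp macrophage genes had higher means than in spleens 1 to 3 (median 1.14), and all 5 erythroid genes lower ones (-1.11). On day 3 all 8 red pulp macrophage genes had higher means than in spleens 4 to 6 (median 0.60), while all 5 erythroid genes (-0.82), all 8 T cell genes (-0.50) and 5 of 6 genes of conventional dendritic cells (-0.51) had lower ones. On day 7 all 7 neutrophil genes had higher means than in spleens 1 to 3 (2.10), and all 7 B cell genes (-1.36) and all 8 T cell genes (-1.18) lower ones. For plasmacytoid dendritic cells, 7 genes had medians of 0.03, -0.26, -0.61 and 0.37 on day 1, day 3, day 7 and in intact spleens 4 to 6. The part of these cell types in the interferon-stimulated genes was not tested. With the acinar mean as a covariate the medians of the 34 genes were -0.30 on day 1, 0.38 on day 3, 0.03 on day 7 and 0.42 between the sets, and without intact spleens 1 and 2 they were -0.37 on day 1, -0.08 on day 7 and 0.44 between the sets.

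Of 58 other genes of the interferon pathway 51 were measured, and 0 of them passed the limma test in the same 4 comparisons. Their median log2 differences were -0.02 on days 1 and 3, -0.08 on day 7 and 0.19 between the sets of intact spleens. The 19 interferon genes had medians of -0.11 on day 1, -0.095 on day 3, 0.06 on day 7 and -0.09 between the sets. Ifnb1, the interferon beta gene, had 3.88, 3.48 and 3.68 on day 3, against 3.01, 3.23 and 3.55 in intact spleens 4 to 6, and Ifng 3.36, 3.83 and 2.71 on day 3, against 3.20, 3.24 and 3.75. Both lay below the array median on all 15 arrays, so that their differences rest on low signal.

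Genes of interferon reception differed in direction between days and sets. Ifnar1, a chain of the type I receptor, was higher in mean by 0.49 on day 1 and 0.86 between the sets, but had differences of -0.21 on day 3 and -0.45 on day 7. Ifnar2, the other chain, differed by 0.60, 0.38 and 0.68 on days 1, 3 and 7, and by -0.82 between the sets. Irf1, a transcription factor of the interferon gamma response, differed by 1.06 between the sets and by 0.13, -0.095 and 0.03 on days 1, 3 and 7. Jak1, the kinase at several interferon receptors, differed by 0.61, 0.02 and -0.89 on days 1, 3 and 7.

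Among the upstream sensors, Tlr7, which detects single-stranded RNA in endosomes, had 11.03, 11.75 and 11.11 on day 1, against 10.68, 9.90 and 10.55 in intact spleens 1 to 3 (0.92 ± 0.40, SE, adjusted p = 0.679 by limma). On day 3 it had 11.75, 11.81 and 10.40, against 10.57, 9.99 and 10.57 in intact spleens 4 to 6, and overlapped. Its adaptor Myd88 differed by 0.75, 0.88 and 1.01 on days 1, 3 and 7. Tlr9, which detects DNA, and Unc93b1, which carries these receptors to endosomes, differed by 1.58 and 1.17 between the sets. Tlr9 lay below the array median on 8 arrays, among them intact spleens 1 to 3, so that its difference rests on low signal there.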

How the data were processed

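Spleen RNA of 15 mice was hybridised to Clariom S arrays. The authors deposited log2 values, which they had obtained with the RMA method of the Transcriptome Analysis Console. RMA corrects the background, quantile-normalises the arrays and summarises the probes of a feature, so these steps could not be varied here. Array controls (6640 of 28846 features) were removed, and all of the other 22206 features entered the tests, dim ones included. The platform annotation gave 19572 of them a single gene symbol.

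The values were fitted with limma 3.58.1 in R 4.3.3 in 1 fit of 15 arrays and 5 groups (intact 1 to 3, intact 4 to 6, and days 1, 3 and 7), with 10 residual degrees of freedom. Tests were two-sided, with Benjamini-Hochberg adjustment over all features and a threshold of 0.05. Errors are SE of the fit unless called SD. The script was tested on simulated data. Precision depends on the number of arrays, which have no read depth.

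The members and gene lists, the matching of intact spleens to days, and the tests were chosen with earlier results of these data known. Levels on every array are given for the 4 members with the largest absolute difference in each of the first 4 comparisons, and for a few others (Irf9, Ifit1, Ifit2, Dhx58, Cmpk2, Igtp and Mx1, and the levels of members on further days), chosen after their values were seen. Of the other pathway genes, those named have the 2 largest differences in each comparison or were set by name. Promoter sequences are from RefSeq, and 10 members had none at hand. Alternatives were other sets of intact spleens, scaling, prior, filter, threshold, covariate, block and leaving out single arrays.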

Additional observations from a re-analysis of the deposited data

Results flagged for a closer look

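Within the 6 intact spleens, 2 of the 34 interferon-stimulated genes had an array far from the others by Dixon's test (critical value 0.625, with 34 genes tested, and about 5% of groups pass it by chance). Irf7 had a log2 level of 5.40 on intact spleen 6, below the other 5, with a gap of 0.637 of the whole range. Cmpk2 had 10.19 on intact spleen 5, above the others, with a gap of 0.633. The share of genes flagged is near that 5%, and the test pooled sets of intact spleens that differ. No explanation was tested for either gene.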

How the results depend on the processing

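With the other set of intact spleens as control, 3 members on day 1, 5 on day 3 and 4 on day 7 passed an adjusted p under 0.05 in limma, in place of 0 each. The day 3 median was then 0.67, the difference of Isg20 on day 1 turned to 0.23, and Ifit3 and Oasl2 on day 3 (1.84 and 2.86) and Ifit3 on day 7 (-1.46) passed. A trended and robust prior called 1 member between the sets of intact spleens, Oasl2 (adjusted p = 0.0439 by limma), and 139 of all 22206 features. At an unadjusted p under 0.05 together with a fold of at least 2 stood 1 member on day 1 (Usp18), 3 on day 3 (Ifit3, Oasl2 and Xaf1), 0 on day 7 and 4 between the sets (Oasl2, Isg20, Trim30a and Ifi27l2a), against 2.07%, 2.03%, 3.47% and 4% of all features. The causes were not tested.

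Leaving out each array in turn, 0 members passed in any comparison. The median of the members then ran from -0.51 to -0.26 on day 1, 0.26 to 0.48 on day 3, -0.16 to 0.22 on day 7 and 0.32 to 0.49 between the sets. Rsad2 on day 3 ran from -1.822 to 0.086, the value without replicate 2 of day 3. Under the alternatives other than leaving out single arrays the day 7 median ran from -0.33 to 0.03. With the replicate number as a block (replicate block, days 1 and 7 with intact spleens 1 to 3), 0 members passed and the medians were -0.37 and -0.07. Same-numbered arrays correlated at -0.208 to 0.212 in their deviations from the group means. Within groups of 3 arrays such values cannot tell whether the numbers pair the spleens. In the remaining cases 99 counts of calls stayed as they were, 58 medians moved by less than the spread between arrays, and 230 single differences kept their direction and call. Those medians include day 7 values above 0, namely 0.22 without replicate 2 of day 7, 0.04 without intact spleen 2 and 0.03 with the acinar covariate. Members with low signal (Oasl1, Oas2, Oas3, Ifit1 and Oas1a) are measured least firmly.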
